A study of Mus musculus and Acomys cahirinus with 84 samples.

Results

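The African spiny mouse, *Acomys cahirinus*, belongs to another genus than the house mouse and is known for healing skin wounds with little scarring. The question here is whether its primary skin fibroblasts changed their mRNA levels after 20 Gy of gamma radiation in the same way as those of wild mice. The comparison uses 16 libraries of the 84 in the series: 4 untreated and 4 given 20 Gy from *A. cahirinus*, and the same from mice labelled only as wild (*Mus musculus*). All 16 are labelled as primary skin fibroblasts, a label that the muscle transcripts described below put in doubt for *A. cahirinus*. They were collected at 24 h in the batch the labels call B1, and all were stranded mRNA libraries from polyA RNA. The labels give no age, sex, wild strain, passage or dose rate. Within a population each replicate number carries one animal code, so an untreated and an irradiated library with the same number form a pair. The measure is a difference of changes, taken from a model fitted to the counts. It is the fitted log2 change from untreated to 20 Gy over the 4 *A. cahirinus* pairs minus that over the 4 wild mouse pairs. Where levels are uneven among animals, a fitted change can depart from the mean of the pair changes. A negative difference means that a gene fell more, or rose less, in *A. cahirinus*. Levels are counts per M reads (CPM) within a library. Apart from cell type and muscle markers, they are not compared between the populations, because each was counted against its own annotation.

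Ionizing radiation breaks DNA, and the kinases ATM and ATR pass the signal to p53. This transcription factor switches on the cell cycle inhibitor Cdkn1a (p21), its own antagonist Mdm2 and genes of repair and cell death. p21 keeps the RB family of proteins active, so that E2F activity drops and the DREAM complex shuts down genes of DNA synthesis and mitosis. At mitotic genes DREAM binds a short promoter element called the cell cycle homology region (CHR). Fibroblasts that stop dividing for good may secrete cytokines and change their matrix genes.

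Some properties of the cultures touch every result below. Total counts were 28.61 to 52.86 M in *A. cahirinus* and 28.01 to 35.98 M in wild mice, so 3 counts stand for 0.0568 to 0.107 CPM. All 10 listed fibroblast markers reached 1 CPM in *A. cahirinus* and 9 of 10 in wild mice on average, where Lum did not. Dcn was uneven among wild mice, at 33.8 to 55.97 CPM in replicate 1 and 0.21 to 3.43 CPM in the others. The *A. cahirinus* libraries also carried 4 of 5 skeletal muscle markers, namely Myod1, Myog, Pax7 and Myh3. The list summed to 561 to 1962 CPM in untreated and 690 to 2431 CPM in irradiated *A. cahirinus* libraries, and to at most 0.374 CPM in any wild mouse library. Ckm, the creatine kinase of mature muscle, was at most 0.356 CPM in any library. *A. cahirinus* replicate 2 had the lowest Myog, at 168 and 206 CPM against 306 or more elsewhere, and the highest Lum. Being *A. cahirinus* and carrying muscle precursor transcripts cannot be told apart in these libraries. The wild mice fell into pairs by genes that mark body position: Hoxc10 was at 44.1 to 49.6 CPM in replicates 2 and 4 and at most 0.0295 CPM in replicates 1 and 3, and Hoxa5 was at 44.95 to 53.8 CPM in replicates 1 and 3 against 1.74 to 3.10 CPM in 2 and 4. Myh11, a smooth muscle myosin, reached 1375 to 1464 CPM in wild replicate 1 and 326.7 to 384.5 CPM in wild replicate 3. These genes were singled out after their values were seen. The number of genes at 1 CPM or more in both libraries of one animal and at 3 counts or fewer in both of another was 12 to 150 between wild mice and 0 to 4 between *A. cahirinus* animals.

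**Figure D1:**
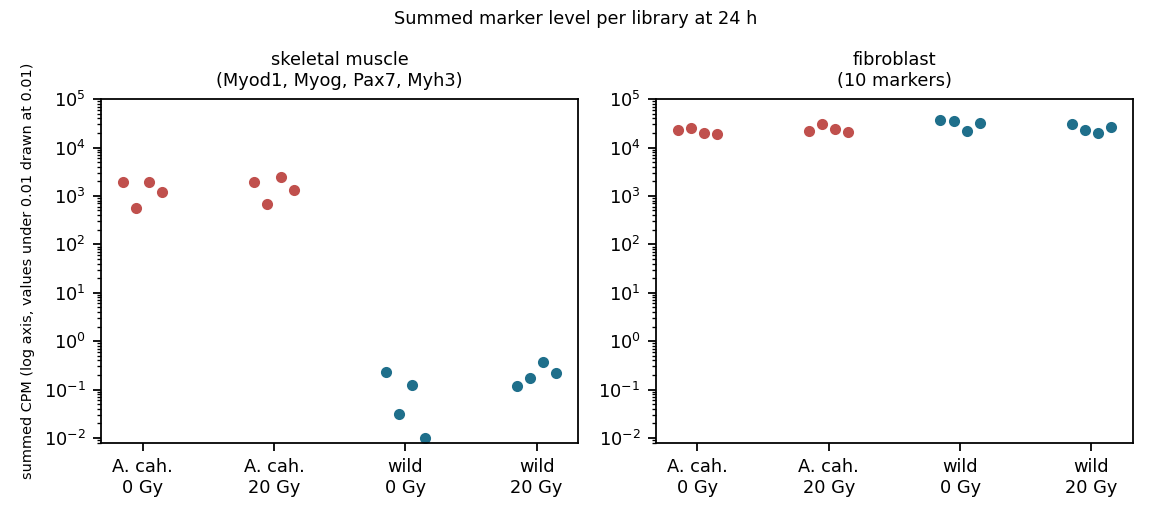
Summed CPM of 4 skeletal muscle markers (left) and 10 fibroblast markers (right) in each of the 16 libraries on a log axis, red for *A. cahirinus* and blue for wild mice, with replicates 1 to 4 from left to right. Fibroblast markers overlap between the populations, while the muscle markers stand above 500 CPM in each *A. cahirinus* library and under 1 CPM in each wild mouse library.

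Of 13613 genes tested, 1005 (7.38%) differed in their change between the populations at an adjusted p under 0.05 (edgeR's quasi-likelihood test with the animal as a block, Benjamini-Hochberg adjustment). The change was higher in *A. cahirinus* for 426 genes (3.13%) and lower for 579 (4.25%). Each population was also tested on its own. The change was called for 2299 genes (16.9%) in *A. cahirinus*, of which 1196 rose (8.79%) and 1103 fell (8.10%), and 2535 (18.6%) in wild mice, of which 1366 rose (10.0%) and 1169 fell (8.59%). The median gene had a difference of 0.00 on the log2 scale. For 1944 genes (14.3%) the 4 pair changes of one population lay wholly outside those of the other, above them for 926 genes (6.80%) and below them for 1018 (7.48%), and 885 were among the called genes. A call here needs the pairing: without the animal block no gene passed by edgeR, 701 had an unadjusted p under 0.05, and DESeq2 without the block called 81. Leaving out *A. cahirinus* replicate 4 gave 558 genes and leaving out its replicate 3 gave 573.

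The called genes with a lower change were of a few kinds. Of the 579, 199 fell in *A. cahirinus* with no call in wild mice, 254 rose in wild mice with no call in *A. cahirinus*, 71 fell in both and 23 fell in *A. cahirinus* while rising in wild mice. Of the 426 with a higher change, 157 rose in *A. cahirinus* with no call in wild mice, 182 fell in wild mice with no call in *A. cahirinus*, and 55 rose in *A. cahirinus* while falling in wild mice. Large differences were mostly on the lower side, with 236 called genes at a log2 difference of 1 or more against 83 on the higher side.

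**Figure D2:**
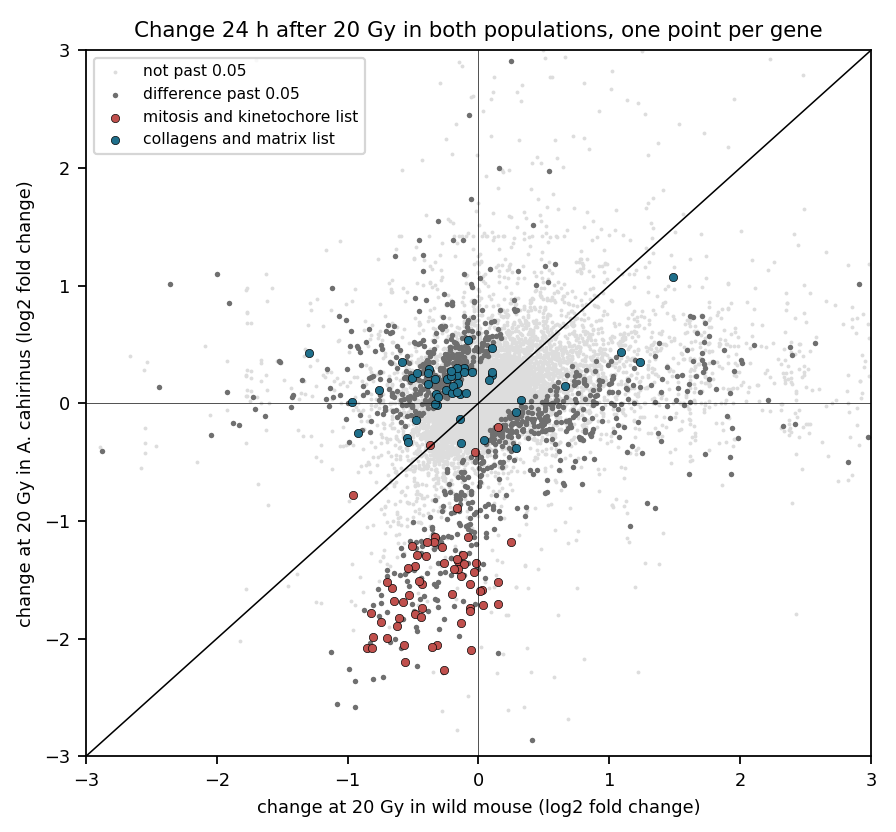
Log2 change at 20 Gy, wild mice on the x axis and *A. cahirinus* on the y axis, one point per tested gene, with dark grey for the 1005 genes past 0.05, red for 60 mitosis genes and blue for 48 matrix genes; the line marks equal change, and 118 genes lie outside the axes. Of the 60 red points 58 lie below the line, down to a change of -2.27 in *A. cahirinus*, and 39 of the 48 blue points lie above it.

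The p53 targets were the members closest to the damage signal, and the best known of them rose in both populations. Cdkn1a, the p21 inhibitor, stood at 381, 283, 355 and 269 CPM in untreated *A. cahirinus* replicates 1 to 4 and at 759, 799, 822 and 799 CPM after 20 Gy. In wild mice it went from 295, 96.01, 169 and 143 CPM to 429, 379, 407 and 361 CPM. Irradiated libraries were above the untreated libraries of their own population without overlap, and wild replicate 1 began highest. The log2 changes were 1.32 ± 0.16 and 1.28 ± 0.16 (SE, 4 pairs each), a difference of 0.04 ± 0.22 (edgeR, adjusted p = 0.966). The sign of this difference is not settled: it was -0.20 without wild replicate 1, -0.03 without *A. cahirinus* replicate 2 and -0.07 without its replicate 4.

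Mdm2, the ligase that removes p53, rose from 93.6, 118, 85.1 and 86.5 to 193, 199, 169 and 170 CPM in *A. cahirinus*. The wild mice rose from 149, 111, 103 and 143 to 204, 360, 306 and 384 CPM, with the smallest rise in replicate 1. The difference of -0.35 ± 0.20 did not pass (edgeR, adjusted p = 0.358). It passed, at -0.62, without wild replicate 1 (edgeR, adjusted p = 0.00265). Ccng1, a cyclin that recruits a phosphatase to Mdm2, changed by 1.49 ± 0.15 in *A. cahirinus* and 1.33 ± 0.15 in wild mice. Eda2r, a death receptor of the TNF family, changed by 2.21 ± 0.24 and 1.38 ± 0.23, and its pair changes overlapped. Gdf15, a secreted stress cytokine, rose in wild mice by 1.17 ± 0.26, while its change of 0.61 ± 0.27 in *A. cahirinus* did not pass (edgeR, adjusted p = 0.137). None of the 3 had a difference past 0.05.

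Over the whole list of p53 targets, 26 of 50 tested members rose in *A. cahirinus* and 4 fell, while 36 rose in wild mice and none fell. Of all genes, 8.79% rose and 8.10% fell in *A. cahirinus*, and 10.0% rose and 8.59% fell in wild mice. The median member changed by 0.40 in *A. cahirinus* and by 0.59 in wild mice on the log2 scale. The difference was called for 12 members, 10 lower (20%, against 4.25% of all genes) and 2 higher (4.0%, against 3.13%, which is near that background). The lower calls include Ano3, which is set aside below, and Ckap2 and Gtse1, which also act in mitosis. Pmaip1, the BH3-only death protein Noxa, changed by 0.34 ± 0.22 in *A. cahirinus* and by 1.72 ± 0.26 in wild mice, but its called difference was lost in 5 of 8 fits with a pair left out (edgeR, adjusted p up to 0.0819). Pidd1, a scaffold of the caspase-activating PIDDosome, rose by 0.52 and 1.72, and Sulf2, an extracellular sulfatase, by 0.57 and 1.76. Tnfrsf10b, the TRAIL death receptor, rose by 0.59 in wild mice and was at -0.16 in *A. cahirinus*. Ckap2 and Gtse1 are p53 targets that also act on the mitotic spindle. They fell in *A. cahirinus*, by 0.69 and 0.76, and rose in wild mice, by 0.65 and 0.51. On the higher side stood Aen, a nuclease of apoptosis, which rose by 1.17 in *A. cahirinus* and 0.51 in wild mice, and the RNA-binding protein Zmat3, which rose by 1.01 and 0.44.

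Ano3, a gene of the anoctamin family, rose in wild mice from 0.368 to 2.24 CPM up to 4.95 to 15.3 CPM. It stood at 0 to 0.319 CPM in the 8 *A. cahirinus* libraries, near the 3-count level, so its change there was not measurable at this depth and its called difference is not read as one between the populations. The number of called p53 targets ran from 8 to 18 when single pairs were left out. It was 18 without wild replicate 1, whose list mean rose by 0.33, against 0.75 to 0.93 in the other wild pairs and 0.36 to 0.48 in *A. cahirinus*. Among untreated wild libraries, replicate 1 had the highest summed level of this list, at 3392 CPM against 2490 to 2951 CPM.

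**Figure D3:**
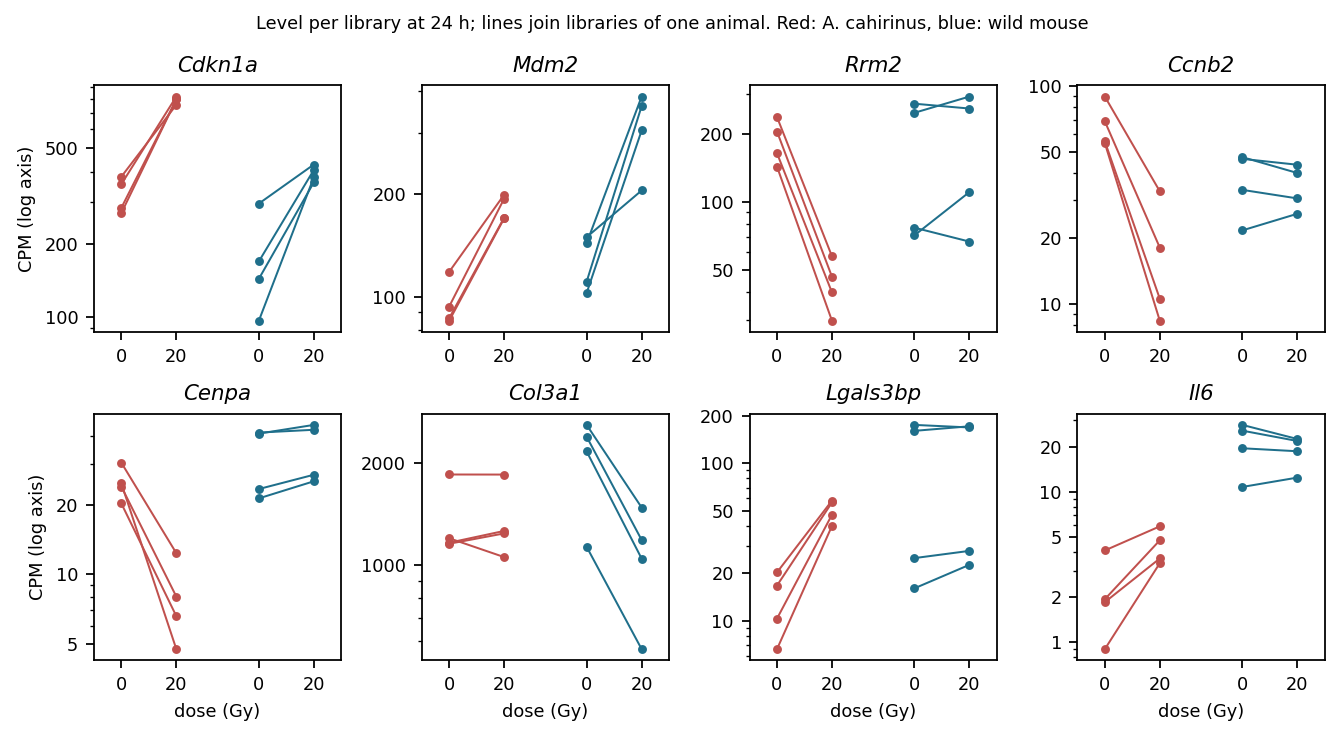
CPM on a log axis (a separate scale per panel) at 0 and 20 Gy for 8 genes, with lines joining the 2 libraries of one animal, red for *A. cahirinus* and blue for wild mice. Cdkn1a and Mdm2 climb in all 8 animals, Rrm2, Ccnb2 and Cenpa fall steeply in the 4 *A. cahirinus* animals and stay near their start in wild mice, and Col3a1 falls in the 4 wild mice.

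Genes of mitosis and the kinetochore set the populations apart most. Of 60 members tested, 59 fell in *A. cahirinus* and 26 in wild mice (against 8.10% and 8.59% of all genes). The median log2 changes were -1.53 and -0.34. The difference was called for 55 members (91.7%), all lower in *A. cahirinus*, against 4.25% of all genes. Its median over the list was -1.21, against 0.00 over all genes. In 56 members the log2 changes of all *A. cahirinus* pairs lay below those of all wild mouse pairs, against 7.48% of all genes on that side. The list mean changed by -1.58, -1.94, -1.40 and -1.21 in *A. cahirinus* replicates 1 to 4. The wild mouse values were 0.11, -0.47, -0.32 and -0.64, so wild replicate 1 did not fall. It began lowest: its summed list level was 2152 CPM untreated, against 3016 to 3479 CPM in the other wild mice. After 20 Gy its sum was 2328 CPM, within the 2055 to 2910 CPM of the others.

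Ccnb2 encodes cyclin B2, a partner of the mitotic kinase Cdk1 (ENSMUSG00000032218, GRCm39 chromosome 9, 70314974 to 70328829). Its level went from 55.7, 54.8, 68.97 and 89.6 CPM to 10.6, 8.37, 18.1 and 32.9 CPM in *A. cahirinus*, and from 21.8, 47.2, 46.4 and 33.4 to 25.9, 39.9, 43.6 and 30.5 CPM in wild mice. The irradiated *A. cahirinus* libraries lay below the untreated ones without overlap, and the wild mouse groups overlapped. The changes were -2.09 ± 0.16 and -0.06 ± 0.15, a difference of -2.04 ± 0.21 (edgeR, adjusted p = 0.000110).

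Cenpa, the histone that marks centromeres, went from 20.3, 24.8, 24.1 and 30.5 CPM to 6.59, 4.74, 8.01 and 12.4 CPM in *A. cahirinus*. In wild mice its 8 values lay between 21.4 and 44.5 CPM and each pair ended slightly higher. The difference was -1.86 ± 0.18 (edgeR, adjusted p = 9.81e-05). Hjurp, the chaperone that loads this histone and no member of the list, differed by -2.02 ± 0.23. Within the list Sgo2a, the shugoshin that guards centromere cohesion, differed by -1.998 ± 0.34, with levels of only 0.413 to 9.80 CPM.

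Mki67, the proliferation antigen Ki-67, fell in both populations and further in *A. cahirinus*. Its levels went from 278, 287, 314 and 280 to 67.7, 50.7, 85.4 and 96.3 CPM there, and from 122, 131, 198 and 193 to 95.97, 68.8, 118 and 83.8 CPM in wild mice. These are changes of -1.99 ± 0.14 and -0.81 ± 0.14, and a difference of -1.18 ± 0.19 (edgeR, adjusted p = 0.00199). Top2a, the topoisomerase that untangles chromosomes, fell by 1.62 ± 0.15 in *A. cahirinus* and stood at -0.20 ± 0.14 in wild mice. Ccnb1, cyclin B1, fell by 1.36 ± 0.14 in *A. cahirinus* and stood at -0.02 ± 0.14 in wild mice.

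Other called members included the kinases Plk1 (difference -1.63), Aurka (-1.05), Aurkb (-1.23) and Ttk (-1.11), the kinesins Kif20a (-1.68), Kif2c (-1.74) and Kif11 (-1.27), and the anaphase activator Cdc20 (-1.73). The condensin subunits Smc2 (-0.79) and Smc4 (-0.70) had the smaller differences. The 5 members without a call were Birc5, Cdc25b, Pttg1, Spc24 and Ska1. Of these, Ska1 fell by 0.78 in *A. cahirinus* and 0.96 in wild mice, and Pttg1 stood at -0.20 and 0.15.

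The mitosis count held at 52 to 55 members when any single pair was left out. It was 40 without wild replicates 1 and 3 and 56 without wild replicates 2 and 4, 2 alternatives chosen after the positional genes were seen. It was 0 without the animal block by edgeR and 22 by DESeq2 without it. In bulk libraries fewer dividing cells and less RNA per dividing cell cannot be told apart. *A. cahirinus* replicate 2, with the lowest muscle markers, had the largest fall of the list mean, and the part of the muscle transcripts in these differences was not tested.

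The CHR is shown here because mitotic genes are known to be repressed through it. TTTGAA or TTCGAA was searched on both strands of the mouse RefSeq promoters (GRCm38.p6), which span 250 bases before to 50 bases after each start. TTCGAA is its own reverse complement, and TTTGAA reads as TTCAAA on the other strand. Of the 55 called mitosis genes, 47 had 1 or more promoters in the table, and 40 of their 50 promoters (80%) held the element. The share was 25.2% of 584 promoters of called genes lower in *A. cahirinus*, 12.2% of 410 promoters of called genes higher there, 13.7% of promoters of all tested genes and 19.2% of all 32851 promoters. For the DNA replication genes it was 18%. The called lower genes include the called mitosis genes, so the 40 mitosis promoters with the element count in both of those shares. Within the 80 bases from 50 before to 30 after the start, the shares were 56% for the called mitosis genes and 4.34% for all promoters. These are mouse sequences, and the *A. cahirinus* promoters were not analysed here. The 5 called mitosis genes with the largest differences, a single promoter in the table and the element within those 80 bases are printed on the gene's strand, 5′ to 3′, with the element in capitals. Ccnb2 lies at chr9:70421525-70421604 (minus strand, element from base 5 after the start), Cenpa at chr5:30666836-30666915 (plus strand, base 17), Hmmr at chr11:40733408-40733487 (minus strand, base 9), Cdc20 at chr4:118437314-118437393 (minus strand, base -18) and Depdc1a at chr3:159495383-159495462 (plus strand, base -16).
Ccnb2: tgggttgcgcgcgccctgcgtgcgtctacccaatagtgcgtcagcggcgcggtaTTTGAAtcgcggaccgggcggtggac
Cenpa: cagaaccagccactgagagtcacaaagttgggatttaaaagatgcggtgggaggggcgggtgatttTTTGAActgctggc
Hmmr: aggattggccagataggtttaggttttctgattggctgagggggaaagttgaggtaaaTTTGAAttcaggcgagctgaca
Cdc20: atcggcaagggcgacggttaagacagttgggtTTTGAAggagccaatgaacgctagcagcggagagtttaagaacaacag
Depdc1a: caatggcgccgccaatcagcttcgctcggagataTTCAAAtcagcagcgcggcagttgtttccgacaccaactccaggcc

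Genes of DNA replication and nucleotide supply also fell further in *A. cahirinus*, less evenly than the mitotic genes. Of 52 members, 50 fell in *A. cahirinus* and 29 in wild mice (against 8.10% and 8.59% of all genes), with medians of -0.97 and -0.46. The difference was called for 18, all lower (34.6% against 4.25% of all genes). Rrm2 is the regulated subunit of the ribonucleotide reductase that makes deoxynucleotides. It had the largest difference among called genes with a mean of at least 5 CPM, at least 1 CPM in each population and pair changes without overlap. It lies on GRCm39 chromosome 12, 24758240 to 24764145 (ENSMUSG00000020649). It went from 164, 143, 204 and 237 CPM to 39.7, 29.7, 46.5 and 57.3 CPM in *A. cahirinus*. The wild mice went from 71.0, 247, 76.7 and 271 to 110, 292, 66.6 and 258 CPM, with replicates 1 and 3 far below 2 and 4 at both doses. The change was 0.230-fold in *A. cahirinus* and 1.11-fold in wild mice, a log2 difference of -2.27 ± 0.15 (edgeR, adjusted p = 4.09e-06). Rrm1, the other subunit, fell by 0.90 in *A. cahirinus* and stood at 0.11 in wild mice.

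The replicative helicase and its loaders showed the same direction with smaller differences. Mcm5 went from 55.4, 43.4, 72.5 and 80.9 to 17.5, 15.9, 27.1 and 33.04 CPM in *A. cahirinus*, and from 36.8, 79.2, 60.6 and 74.0 to 42.9, 42.1, 47.7 and 32.2 CPM in wild mice. Wild replicate 1 was the one wild mouse in which it did not fall. The difference was -0.89 ± 0.23 (edgeR, adjusted p = 0.0299, and up to 0.106 with single pairs left out). Cdc6, which loads this helicase onto origins, differed by -1.21 ± 0.28, with pair changes that overlapped and an edgeR adjusted p of 0.0547 without wild replicate 3. Mcm4 differed by -0.93, Mcm7 by -0.89 and Cdc45 by -1.03. Members without a call included Pcna, the polymerase clamp, at -0.96 in *A. cahirinus* and -0.60 in wild mice, and the uracil glycosylase Ung at -1.45 and -1.39. This result rests on the choice of wild mice: 39 members were called from wild replicates 1 and 3 alone, and 4 from replicates 2 and 4 alone. The list mean changed by 0.07 and -0.37 in wild replicates 1 and 3, by -0.55 and -0.93 in 2 and 4, and by -0.9986 to -1.07 in *A. cahirinus*. Leaving out wild replicate 3 gave 7 calls, leaving out wild replicate 4 gave 33, and leaving out *A. cahirinus* replicate 3 or 4 gave 10.

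**Figure D4:**
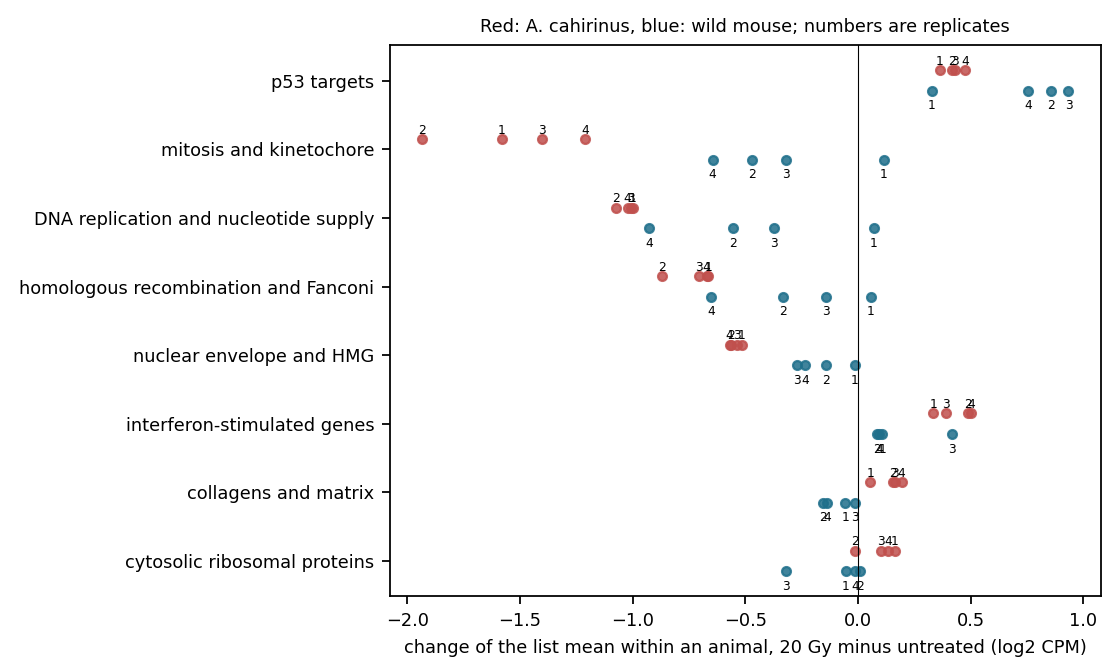
Change of the mean log2 CPM of 8 gene lists within each animal (20 Gy minus untreated), red for *A. cahirinus*, blue for wild mice, with the replicate number beside each point. The mitosis points of the populations lie apart, the replication and recombination points of wild replicate 4 lie close to those of *A. cahirinus*, and wild replicate 1 has the highest value in both.

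The regulators of this programme followed it in part. In the list of E2F factors, RB family members and cyclins, 25 of 40 fell in *A. cahirinus* and 15 in wild mice. Of all genes, 8.10% and 8.59% fell. The difference was lower for 10 members (25%, against 4.25% of all genes) and higher for 2 (5%, against 3.13%, which is near that background). E2f1, an activator of S phase genes, went from 51.8, 37.9, 56.7 and 66.8 to 25.4, 20.8, 31.8 and 39.3 CPM in *A. cahirinus*, and in wild mice its 8 values stayed between 40.2 and 51.5 CPM. The difference was -0.92 ± 0.12 (edgeR, adjusted p = 0.000406). Ccnf, the F-box cyclin that targets Rrm2 and others for destruction, differed by -1.61 ± 0.17. E2f8, a repressive E2F, fell in both populations, by 2.33 ± 0.14 and 0.73 ± 0.16. Foxm1, which drives mitotic genes, fell by 1.83 and 0.58, and Ccna2, cyclin A2, by 2.34 and 0.81. Ccnd1, cyclin D1, rose in both, by 0.36 in *A. cahirinus* and 0.90 in wild mice. The 2 higher members were Rbl2, the p130 protein of the DREAM complex, which rose by 0.69 in *A. cahirinus* and stood at 0.10 in wild mice, and Ccnd3, cyclin D3, which rose by 0.24 and stood at -0.17.

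Of 43 genes of homologous recombination and the Fanconi pathway, 29 fell in *A. cahirinus* and 12 in wild mice (against 8.10% and 8.59% of all genes), and 13 had a lower difference (30.2%, against 4.25%). Brca1, which promotes end resection, went from 34.1, 28.2, 37.3 and 40.4 to 10.8, 7.37, 10.5 and 12.8 CPM in *A. cahirinus*. In wild mice it went from 13.5, 17.6, 18.9 and 19.1 to 13.1, 13.8, 16.8 and 9.56 CPM, a fall largest in replicate 4. The difference was -1.38 ± 0.18 (edgeR, adjusted p = 0.000490). Dna2, a nuclease and helicase of resection, differed by -1.64 ± 0.29, and Bard1, the partner of Brca1, by -1.20. Brca2 and Rad52 were among the 30 without a call. As with replication, 20 members were called from wild replicates 1 and 3 alone and 2 from replicates 2 and 4 alone, and 7 without wild replicate 3.

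Genes of damage signalling and end joining carried 1 call among 34 (2.94%, against 7.38% of all genes in either direction). Their medians were -0.05 in *A. cahirinus* and -0.09 in wild mice. The call was Chek1, the ATR effector kinase, which fell by 1.18 ± 0.13 and 0.48 ± 0.14. Its difference of -0.70 ± 0.19 (edgeR, adjusted p = 0.0421) missed the threshold when any one of 7 of the 8 pairs was left out, at up to 0.134. Atm stood at -0.15 and -0.26, Prkdc, the end-joining kinase, at -0.22 and 0.08, and Trp53bp1 at 0.11 in both.

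Nuclear envelope and HMG proteins held 10 lower calls among 26 members (38.5%, against 4.25% of all genes) and no higher one. Lmnb1, lamin B1, is known to be lost from senescent cells. It fell in all 8 animals: from 95.4, 86.7, 124 and 153 to 29.2, 23.1, 38.6 and 54.9 CPM in *A. cahirinus*, and from 42.3, 65.5, 92.7 and 61.2 to 32.6, 39.8, 48.9 and 31.6 CPM in wild mice. The changes were -1.69 ± 0.09 and -0.75 ± 0.09, a difference of -0.95 ± 0.13 (edgeR, adjusted p = 0.000710). Hmgb2 fell by 1.76 and 0.88 and Lmnb2 by 1.41 and 0.70. The chromatin proteins Hmga1 and Hmga2 took another course. Hmga1 rose in wild mice from 80.0, 41.4, 142 and 37.6 to 112, 109, 195 and 88.5 CPM and fell in *A. cahirinus* from 49.98, 27.8, 54.7 and 88.7 to 30.2, 22.3, 36.6 and 73.5 CPM. Its difference was -1.35 ± 0.19 (edgeR, adjusted p = 0.000842). Hmga2 rose in wild mice by 0.996 and stood at 0.10 in *A. cahirinus*.

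Collagen and matrix genes differed in the other direction. Of 48 members, 16 rose and 3 fell in *A. cahirinus*, whereas 6 rose and 17 fell in wild mice. Of all genes, 8.79% rose and 8.10% fell in *A. cahirinus*, and 10.0% rose and 8.59% fell in wild mice. The 3 falls and the 6 rises were near these shares. The difference was higher in *A. cahirinus* for 14 (29.2%, against 3.13% of all genes), with a list median of 0.34. It was lower for 2 (4.17%, against 4.25%, which is near that background). Col3a1, the main chain of collagen III (ENSMUSG00000026043, GRCm39 chromosome 1, 45350698 to 45388866), stood at 1201, 1850, 1157 and 1165 CPM in untreated and 1057, 1849, 1241 and 1262 CPM in irradiated *A. cahirinus*. In wild mice it fell from 2589, 2163, 1133 and 2390 to 1479, 1046, 566 and 1187 CPM. It fell in each wild mouse, while *A. cahirinus* animals moved slightly up or down. The changes were 0.01 ± 0.07 and -0.97 ± 0.07, a difference of 0.97 ± 0.09 (edgeR, adjusted p = 9.81e-05).

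Col1a1 and Col1a2, the chains of collagen I, differed by 0.67 and 0.55. Col1a1 rose by 0.29 in *A. cahirinus* and fell by 0.38 in wild mice. P4ha2 and Plod1, which hydroxylate proline and lysine in collagen, rose by 0.22 and 0.26 in *A. cahirinus* and fell by 0.51 and 0.47 in wild mice. The lower calls were Vcan, a large proteoglycan, which fell by 0.38 in *A. cahirinus* and rose by 0.28 in wild mice, and the lysyl oxidase Loxl3, which rose by 0.43 and 1.09. Dcn, the proteoglycan decorin, differed by 0.94 ± 0.16, but its levels were uneven among wild mice, from 0.214 to 55.97 CPM, and the pair changes overlapped, with a rise in wild replicate 2. Its call was lost without wild replicate 1 (edgeR, adjusted p = 0.0512). With single pairs left out the called matrix genes numbered 10 to 20, the lowest without *A. cahirinus* replicate 4. The fit of all 24 h libraries called 7, 6 higher and 1 lower, against the 16 given above.

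Of 36 contractile and YAP target genes, 6 were called higher (16.7%, against 3.13% of all genes) and none lower. Cnn1, calponin, went from 173, 210, 142 and 117 to 218, 282, 213 and 216 CPM in *A. cahirinus*, and its difference was 0.63 ± 0.12 (edgeR, adjusted p = 0.00546). Ankrd1, a YAP target that is also abundant in muscle, differed by 0.53 ± 0.11, and missed the threshold without *A. cahirinus* replicate 4 (edgeR, adjusted p = 0.0545). The summed skeletal muscle markers reached 1 CPM only in the *A. cahirinus* libraries, while other muscle genes were also high in some wild mice. Des stood at 739 to 897 CPM in wild replicate 1, 306 to 384 CPM in 3 and at most 7.94 CPM in 2 and 4. The part of the muscle transcripts in these values was not tested. The contractile count fell to 1 without *A. cahirinus* replicate 4, to 2 without its replicate 2 or 3, and to 1 in the fit of all 24 h libraries. Of 42 lysosomal genes, 5 were called higher (11.9%) and none lower, among them Ctsk, cathepsin K (0.72 ± 0.14), and Naglu, a heparan sulfate hydrolase (0.60 ± 0.12). The called lysosomal genes numbered 3 without *A. cahirinus* replicate 3 or 4 or wild replicate 3. Without wild replicate 1 they numbered 8, of which 4 were higher and 4 lower.

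Secreted factors went both ways. Of 46 tested members of the secretory list, 14 rose in *A. cahirinus* and 17 in wild mice (against 8.79% and 10.0% of all genes). The difference was higher for 6 (13.04%, against 3.13%) and lower for 4 (8.70%, against 4.25%). Il6, the inflammatory cytokine, rose in *A. cahirinus* from 1.94, 4.09, 0.903 and 1.85 to 4.77, 5.91, 3.37 and 3.62 CPM. In wild mice it stood at 19.5, 25.6, 27.9 and 10.8 CPM untreated and 18.6, 21.8, 22.5 and 12.5 CPM irradiated. Each *A. cahirinus* animal gained more than any wild mouse. The changes were 1.10 ± 0.18 and -0.11 ± 0.14, a difference of 1.21 ± 0.23 (edgeR, adjusted p = 0.00481). The monocyte attractants Ccl2 and Ccl7 rose by 1.19 and 1.13 in *A. cahirinus*, and stood at 0.59 (a rise past 0.05) and 0.30 in wild mice. On the lower side were growth factors and adhesion genes: Areg, an EGF receptor ligand, rose by 1.01 ± 0.21 and 2.90 ± 0.37, with untreated wild levels of 0.120 to 0.218 CPM. Its difference missed the threshold without wild replicate 2 (edgeR, adjusted p = 0.148). Fgf2 stood at 0.13 and rose by 1.13 in wild mice, and Icam1 rose by 0.51 and 1.38. Igfbp3, which binds insulin-like growth factors, fell by 1.58 and 1.78. The count of 10 fell to 4 without *A. cahirinus* replicate 3, to 5 without its replicate 2 or 4 or wild replicate 2, and to 6 without *A. cahirinus* replicate 1 or wild replicate 3. It was 5 in the fit of all 24 h libraries.

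Interferon-stimulated genes were called higher for 4 of 36 (11.1%, against 3.13% of all genes) and lower for none, and for 2 in the fit of all 24 h libraries. Lgals3bp, a secreted galectin-binding glycoprotein, went from 16.7, 20.3, 10.3 and 6.62 to 56.3, 57.9, 47.1 and 39.98 CPM in *A. cahirinus*. In wild mice it stood at 24.99, 175, 16.1 and 160 CPM untreated and at 27.8, 168, 22.7 and 171 CPM irradiated, low in replicates 1 and 3 and high in 2 and 4. The difference was 1.84 ± 0.19 (edgeR, adjusted p = 0.000110). Isg20, an antiviral exonuclease, rose by 1.26 ± 0.14 in *A. cahirinus*, from untreated levels of 0.903 to 1.70 CPM, and fell by 0.42 ± 0.11 in wild mice. Bst2 (tetherin) rose by 0.66 in *A. cahirinus* and stood at -0.28 in wild mice, and Irf1 stood at 0.25 and -0.26. Core members of the response had no called difference: Isg15 stood at 0.40 and 0.03, and Cxcl10 at 1.42 and 0.12. The list median was 0.42 in *A. cahirinus* and 0.15 in wild mice, and 10 and 4 members rose (against 8.79% and 10.0% of all genes). Many members were low. With a mean of at least 1 CPM required in each population, 21 were tested and 5 called higher, with a median difference of 0.265.

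The metabolic and housekeeping lists are read against all genes, of which 3.13% were called higher and 4.25% lower (7.38% in either direction). Of 31 cholesterol genes, 4 fell in *A. cahirinus* and 16 in wild mice (against 8.10% and 8.59% of all genes). Of their differences 4 were called, 3 higher (9.68%) and 1 lower (3.23%) (2 in all without *A. cahirinus* replicate 3 or 4, and 7 without wild replicate 1). Cyp51, a sterol demethylase, fell by 0.65 ± 0.07 in wild mice and stood at -0.06 ± 0.07 in *A. cahirinus*. Fads2, a fatty acid desaturase, fell by 0.85 ± 0.07 in *A. cahirinus* and stood at -0.08 ± 0.06 in wild mice. Among 39 antioxidant genes 2 differences were higher (5.13%), led by Gstm2 at 0.62 ± 0.10, and 2 lower (5.13%), led by Gsto1 at -0.48 ± 0.10. None of 46 respiratory chain genes was called, the lowest p belonging to Cycs, cytochrome c (edgeR, adjusted p = 0.134). Of 59 ribosomal protein genes 1 was called higher (1.7%), Rpl19 at 0.40 ± 0.09, although 58 of the 59 differences were above 0, with a median of 0.19. The ribosomal list mean changed by -0.05, 0.01, -0.32 and -0.01 in wild replicates 1 to 4. It changed by 0.16, -0.01, 0.10 and 0.13 in *A. cahirinus* replicates 1 to 4. Without wild replicate 3 the median difference was 0.12. Of 27 immediate early genes 1 was called lower (3.7%), the nuclear receptor Nr4a2 at -0.62 ± 0.14. The calls of Rpl19 and Nr4a2 were each lost when some single pairs were left out.

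**Figure D5:**
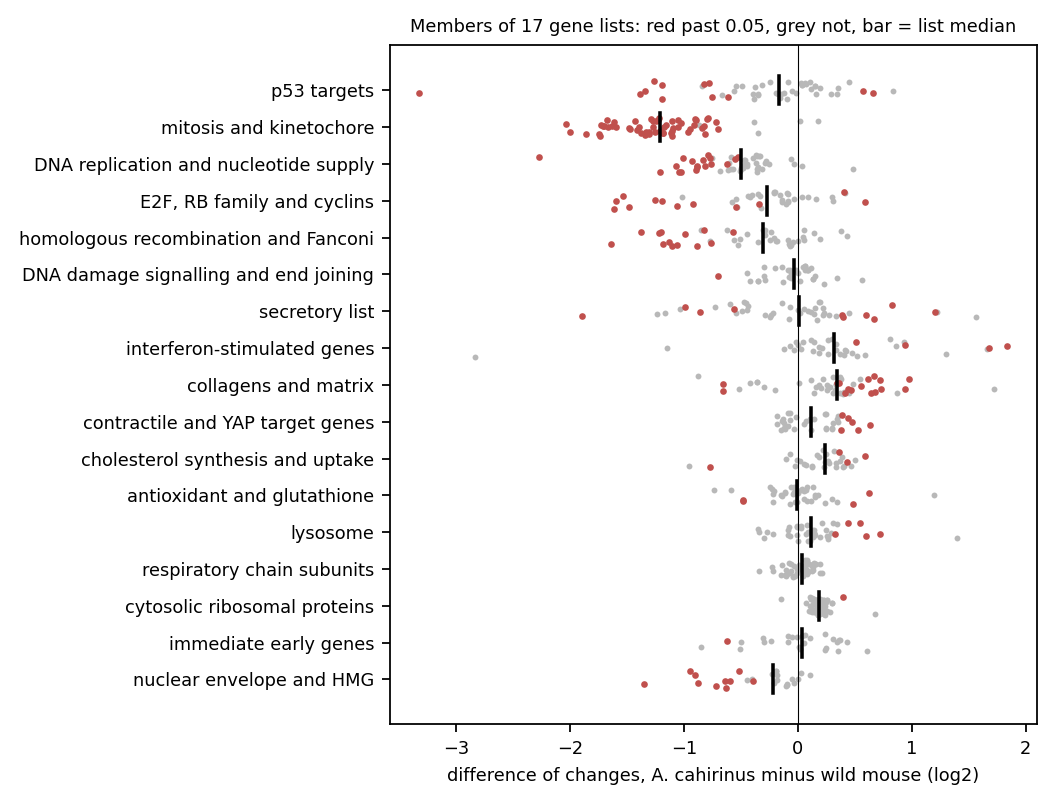
Difference of changes (log2, *A. cahirinus* minus wild mouse) for the tested members of 17 gene lists, red where past 0.05, with a black bar at the list median. The mitosis list lies almost wholly below -0.7, the other cell cycle and recombination lists reach down from near 0, and the matrix list has its red points mostly above 0.

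In the other named genes outside these lists the change lay mainly in wild mice. Smoc2, a calcium-binding matrix protein, rose in wild mice from 1.94, 17.7, 0.968 and 30.9 to 10.0, 65.9, 2.28 and 62.4 CPM and fell in *A. cahirinus* from 7.46, 8.60, 3.96 and 1.72 to 4.64, 5.63, 3.11 and 0.955 CPM. The direction was the same in the 4 animals of each population, and the difference was -2.21 ± 0.25 (edgeR, adjusted p = 0.000172). Apln, the ligand apelin, fell in wild mice by 1.71 ± 0.16 and stood at -0.05 ± 0.16 in *A. cahirinus*. Mt2, a metallothionein that binds zinc and copper, fell in wild mice from 15.4, 2.70, 18.8 and 1.82 to 6.96, 0.461, 3.47 and 0.498 CPM. In *A. cahirinus* it stood at 175 to 301 CPM in all 8 libraries, and the difference was 1.65 ± 0.23. Abi3bp, a matrix-associated protein, fell by 1.63 ± 0.14 in wild mice over levels of 0.767 to 503 CPM, and Map3k7cl fell by 1.42 ± 0.14. In *A. cahirinus* they stood at -0.11 and 0.06.

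Values at 10 Gy and in mice labelled C56BL6 are given beside these without a test, since the 10 Gy changes use the same untreated libraries. They come from one fit of all 36 libraries at 24 h. The median change of the mitosis genes was -1.81 at 10 Gy and -1.57 at 20 Gy in *A. cahirinus*, -0.87 and -0.36 in wild mice, and -0.17 and 0.11 in C56BL6 mice. For the replication genes the medians were -1.04 and -0.99, -0.65 and -0.48, and -0.21 and -0.03. For the p53 targets they were 0.30 and 0.38, 0.54 and 0.58, and 0.27 and 0.33. For the matrix genes they were 0.18 and 0.15, -0.43 and -0.21, and -0.11 and -0.14. Wild mice at 10 Gy also had medians of 0.53 for respiratory chain and 0.46 for ribosomal genes, against -0.02 and -0.11 at 20 Gy.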

How the data were processed

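Gene counts are deposited in 2 tables, made with featureCounts 2.0.3 per the file headers, one against Ensembl 108 (GRCm39) and one against the *A. cahirinus* assembly by gene name. The deposited gene length columns (in base pairs) and the tables' remaining columns were not used. The submitters' processing notes also name Trim Galore and HISAT2, and the strand setting is not given in the sources used here, so counts of overlapping, antisense or near-identical genes are uncertain. Symbols found once in each table were joined, giving 18109, and 13613 passed edgeR's filterByExpr (minimum count 10). Size factors (TMM) were computed within each table. edgeR 4.0.16 (R 4.3.3) fitted 1 quasi-likelihood model to the 16 libraries with the animal as a block and treatment within population, and p-values were Benjamini-Hochberg adjusted over all 13613 genes. Standard errors come from the F statistics, and list means use log2 CPM computed here with a prior count of 2. The replicate numbers pair libraries through the animal codes in the library names. Deviations of same-numbered libraries correlated at 0.336 to 0.776 in *A. cahirinus* and 0.858 to 0.898 in wild mice. P-values measure the spread among these animals' cultures, and the level of 3 counts covers counting error only. Named genes were a panel of 12 and the 6 largest called differences in each direction (mean of at least 5 CPM, at least 1 CPM in each population, pair changes without overlap). Each list added up to 2 called genes, those with the largest differences, or the gene with the smallest p where none was called. The members, lists and panel were chosen with earlier results of these data known. DESeq2 1.42.0, other filters and scalings, and pairs left out were tried. The models were tested on simulated counts.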

Additional observations from a re-analysis of the deposited data

Results flagged for a closer look

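A test of the difference between the populations' changes marked 41 named genes, and their log2 differences (*A. cahirinus* minus wild mouse) are collected here. Cell division, replication and repair genes were lower: Rrm2 (-2.27), Ccnb2 (-2.04), Hjurp (-2.02), Sgo2a (-1.998), Cenpa (-1.86), Dna2 (-1.64), Ccnf (-1.61), E2f8 (-1.60), Top2a (-1.42), Brca1 (-1.38), Ccnb1 (-1.35), Cdc6 (-1.21), Mki67 (-1.18), E2f1 (-0.92), Mcm5 (-0.89) and Chek1 (-0.70). So were the p53 targets Pmaip1 (-1.39) and Ano3 (a fitted -3.33, with *A. cahirinus* levels near the counting floor), the nuclear proteins Lmnb1 (-0.95) and Hmga1 (-1.36), and Smoc2 (-2.21), Areg (-1.90), Fads2 (-0.77), Nr4a2 (-0.62) and Gsto1 (-0.48). Higher were Lgals3bp (1.84), Isg20 (1.68), Apln (1.66), Mt2 (1.65), Abi3bp (1.52), Map3k7cl (1.48), Il6 (1.21), Col3a1 (0.97), Dcn (0.94), Ctsk (0.72), Cnn1 (0.63), Gstm2 (0.62), Naglu (0.60), Cyp51 (0.59), Ankrd1 (0.53) and Rpl19 (0.40).

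In 3 of 94 groups of 4 pair changes, 1 animal lay far from the other 3, where chance gives about 1 group in 20. Top2a changed by -2.20 in *A. cahirinus* replicate 2, Dcn by 0.77 in wild replicate 2 and Ctsk by -0.39 in wild replicate 3.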

How the results depend on the processing

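The count of 1005 genes with a called difference was 0 without the replicate block by edgeR (701 at an unadjusted p under 0.05) and 81 by DESeq2 without the replicate block. For the change in *A. cahirinus* these fits gave 311 and 530 genes, and the fit of all 24 h libraries with the block gave 1473. That fit also ended the calls of Dcn, Ankrd1, Gsto1, Rpl19 and Nr4a2. For the change in wild mice they gave 27 and 222. With single pairs left out the counts ran from 558 to 1088, from 948 to 2556 (lowest without *A. cahirinus* replicate 4, 1011 without 3) and from 1349 to 2939 (lowest without wild replicate 3, 1484 without 4). In alternatives chosen after seeing the data, 841 differences were called without wild replicates 2 and 4, with 872 changes in wild mice, and 731 differences without wild replicates 1 and 3. Of the 41 called named genes, 31 stayed past 0.05 whichever pair was left out; Ano3, Pmaip1, Mcm5, Cdc6, Chek1, Areg, Dcn, Ankrd1, Rpl19 and Nr4a2 did not. The difference changed sign for Cdkn1a without *A. cahirinus* replicate 2 (-0.03) or 4 (-0.07), wild replicate 1 (-0.20) or wild replicates 1 and 3 (-0.32), and for Ccng1 without wild replicate 1 (-0.0774) or wild replicates 1 and 3 (-0.0725). Their single-pair ranges reached up to 0.27 and 0.33, both without wild replicate 2. The cause was not tested. Genes under about 0.1 CPM rest on 3 counts or fewer.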
